A study of Mus musculus with 6 samples.

Results

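The TRIM genes encode a family of proteins named for a tripartite motif, a RING finger followed by B-box and coiled-coil segments, and most of them act as ubiquitin ligases. In the data examined here they were taken as every gene entry whose symbol begins with Trim and a number. There were 67 such entries among 23282, of which 18 had no count in any library and 29 had a summed count of at least 60 over the 6 libraries. The 29 are described below, and all of them were tested. Just inside this minimum lay Trim36 with 84 counts and Trim45 with 128, and just outside it Trim23 with 58 and Trim54 with 46. The family genes Pml, Mid1, Mid2 and Mefv carry other symbols and are given separately.

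The samples came from RAW 264.7, a mouse macrophage cell line that can be driven to form bone-resorbing osteoclasts, collected on day 5 of that differentiation. Of the 6 samples, 3 were controls and 3 had the treatment label CPN. The series title speaks of chaperonin 60 kDa, and where this protein came from, how much was given, when, and what drove the differentiation are not in the labels. RNA was read by QuantSeq, which sequences the 3′ ends of transcripts, so a count is a tag near the end of a transcript. Whether the 3 samples of a group were separate cultures is not stated, so the p-values reflect the spread among these libraries, and this spread may be technical.

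RING fingers recruit ubiquitin-loaded conjugating enzymes, while the part behind the coiled coil, often a PRY-SPRY domain, selects the target. In macrophages the family is best known for its interferon-inducible members. These restrict viruses or adjust the signals that leave RNA and DNA sensors and Toll-like receptors. Other members, such as Trim28, work on chromatin or have general roles in the cell.

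Library totals ranged from 7957228 to 9713938 counts. Levels are given as CPM, counts scaled to a library size of 1000000 after TMM normalisation, and errors of group means are SD over 3 libraries. A gene was called at an adjusted p under 0.05 (quasi-likelihood test of edgeR, Benjamini-Hochberg over 11092 genes). The macrophage markers, 6 of 6 detected, summed to values that ranged from 1871 to 2368 CPM in control and from 2171 to 2800 CPM in CPN libraries, and the summed osteoclast markers from 3881 to 4060 and from 1075 to 1671 CPM. In these bulk samples, fewer cells of a type and less RNA per cell cannot be told apart. Summed granulocyte markers were between 0 and 0.117 CPM in control and between 18.0 and 34.6 CPM in CPN, with Elane and Camp at 0 throughout among 5 measured. Summed stromal markers, with 5 of 5 detected, were between 0 and 6.23 CPM in control and between 12.2 and 20.4 CPM in CPN. Muscle markers summed to at most 2.11 CPM in any library, with Myh1 at 0. The labels name a single cell line, so these sums are levels of marker genes and do not show that such cells were present. Where these counts came from, and their relation to the results on TRIM genes, was not tested.

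Interferon-stimulated genes often carry a short promoter element, the interferon-stimulated response element (ISRE), and its letters were searched in the promoters of the family. The letters used were GAAA, any 2 bases and GAAA again (on the other strand TTTC, any 2 bases and TTTC), within windows from 250 bases before to 50 bases after a RefSeq transcript start (build GRCm38.p6). Of the 29 described members, 21 had a window, which was missing for Trim33, Trim3, Trim8, Trim11, Trim14, Trim16, Trim35 and Trim36. The letters were held by 5 of the 21: Trim30a, Trim12c, Trim21, Trim26 and Trim2. That is 23.8%, where 3.99% of 27025 genes with a window and 3.44% of 32851 windows held them. Of all 67 TRIM entries, 51 had a window, and 8 of the 51 held the letters (15.7%). Members with several windows, such as Trim2, have more chances of a match. The windows of 4 of them are shown because Trim30a is the member that differed most between the groups and the other 3 share its letters, which stand in capitals. Each is written 5′ to 3′ on the strand of the gene.
Trim30a, chr7:104465144-104465443, minus strand: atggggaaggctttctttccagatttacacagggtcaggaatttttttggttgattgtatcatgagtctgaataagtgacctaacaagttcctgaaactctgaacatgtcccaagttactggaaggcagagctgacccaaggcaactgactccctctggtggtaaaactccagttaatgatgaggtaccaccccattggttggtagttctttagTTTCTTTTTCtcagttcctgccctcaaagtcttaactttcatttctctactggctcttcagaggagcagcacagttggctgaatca
Trim12c, chr7:104353300-104353599, minus strand: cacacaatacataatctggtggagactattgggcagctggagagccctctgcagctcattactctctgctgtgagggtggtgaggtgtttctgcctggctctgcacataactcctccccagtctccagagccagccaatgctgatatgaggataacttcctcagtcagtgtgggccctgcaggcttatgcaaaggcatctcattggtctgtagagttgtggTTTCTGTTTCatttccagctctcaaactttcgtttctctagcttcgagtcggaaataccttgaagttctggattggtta
Trim21, chr7:102565433-102565732, minus strand: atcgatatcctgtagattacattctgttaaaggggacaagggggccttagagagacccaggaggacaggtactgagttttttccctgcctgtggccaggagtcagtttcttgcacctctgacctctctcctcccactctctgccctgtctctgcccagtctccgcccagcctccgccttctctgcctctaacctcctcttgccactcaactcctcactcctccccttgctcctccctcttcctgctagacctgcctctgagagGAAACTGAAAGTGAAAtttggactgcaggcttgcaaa
Trim26, chr17:36836896-36837195, plus strand: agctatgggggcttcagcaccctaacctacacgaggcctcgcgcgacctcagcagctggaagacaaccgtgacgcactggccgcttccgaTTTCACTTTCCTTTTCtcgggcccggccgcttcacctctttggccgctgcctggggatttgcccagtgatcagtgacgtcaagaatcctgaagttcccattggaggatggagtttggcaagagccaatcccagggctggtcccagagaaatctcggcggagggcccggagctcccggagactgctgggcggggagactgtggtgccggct

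The match began 36 bases before the transcript start in the Trim30a window shown and 29 bases before it in Trim12c. A second Trim30a window (chromosome 7, 104446076 to 104446375) held a match that began 2 bases after its start. The first bases from that start were found in no annotated Trim30a transcript. In Trim26 the first match began 160 bases before the start. In Trim21 the first of 2 overlapping matches began 13 bases after the start. In Trim2, whose windows are not shown, the match began 28 bases after a transcript start, and its other windows held none. A match is a description of the letters and not a measured binding site. The window of Trim25 held no match, which says only that these letters are not in that window.

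Over the family, 3 of 29 members rose in CPN cells and none fell, where 7.62% of all tested genes rose and 6.39% fell. Trim30a rose 7.78-fold, Trim25 rose 1.93-fold and Trim33 rose 1.81-fold. The called share of 10.3% compares with 14% of all 11092 genes tested, a difference of about 1 gene in 29. Among members with at least 1000 counts 3 of 16 were called (18.8%), and among all genes at that depth 17.9%. Among the 13 members under 1000 counts none was called by edgeR, with 2 at an unadjusted p under 0.05, and 7.74% of all such genes were called. The median log2 fold change of the members was -0.04, beside -0.01 over all tested genes, and 14 members had a positive and 15 a negative fitted value. Without control replicate 3, without CPN replicate 1 or without CPN replicate 2 only Trim25 and Trim30a were called, and without control replicate 2 there were 4 higher and 1 lower.

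**Figure D1:**
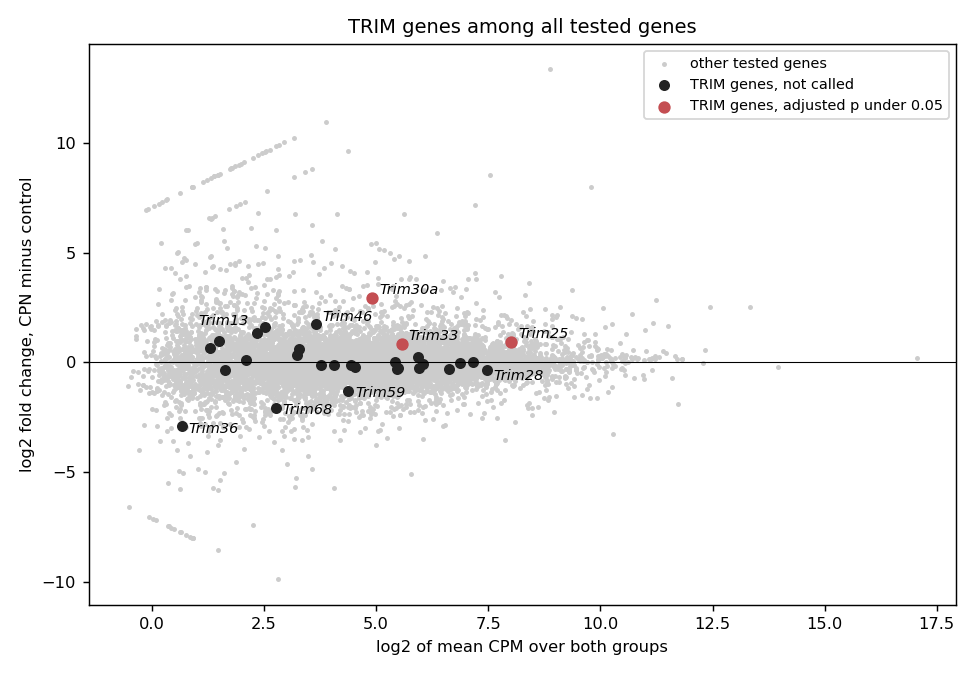
Each point is 1 of 11092 tested genes, with the log2 of its mean CPM over both groups on the horizontal axis and its log2 fold change (CPN minus control) on the vertical axis; TRIM genes are the large points. Trim30a, Trim25 and Trim33 (red) were called, and most other TRIM genes lie near 0; the diagonal streaks far from 0 are genes at 0 in a group, whose fitted values are no measured folds.

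The interferon-inducible genes of the chromosome 7 cluster come first. Trim30a, which restrains Toll-like receptor signalling by acting on the adaptors TAB2 and TAB3, lies on chromosome 7 from 104409025 to 104465193. Its 3 control libraries had 8.04, 8.74 and 3.74 CPM, and its 3 CPN libraries had 32.2, 57.9 and 70.2 CPM. Every CPN library was thus far above every control library, and control 3 was the lowest of all. The mean went from 6.84 ± 2.71 to 53.4 ± 19.4 CPM (SD, n = 3). On the log2 scale the fitted difference was 2.96 with an SE of 0.393 (adjusted p = 0.000285, edgeR). Trim30a was called in all 15 alternative fits, with log2 fold changes between 2.67 and 3.22. Of the 50-base stretches in the 3′ ends of its annotated transcripts, 18.8% also occur in those of the neighbouring Trim30d, so some reads could belong to either gene. Trim30d had 12 counts in all.

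Trim12c, a mouse relative of the retrovirus restriction factor TRIM5, lies close by (chromosome 7, 104338754 to 104353362). It had 7.06, 9.10 and 6.89 CPM in control and 11.2, 13.1 and 11.3 CPM in CPN libraries. The groups did not overlap, but the fitted difference, 0.62 ± 0.441 (SE) on the log2 scale, did not pass (edgeR adjusted p = 0.418). Its 95% interval of -0.33 to 1.58 leaves room for no change and for a rise as large as that of Trim25. The rest of the cluster was barely detected. Trim34a had 0 counts in each control library and 3, 6 and 1 in CPN libraries, Trim34b had 2 counts in all, and Trim6, Trim12a, Trim30b and Trim30e-ps1 had none. A count of 0 allows up to 3 counts in a library, which is between 0.294 and 0.393 CPM at these depths and covers counting error only.

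**Figure D2:**
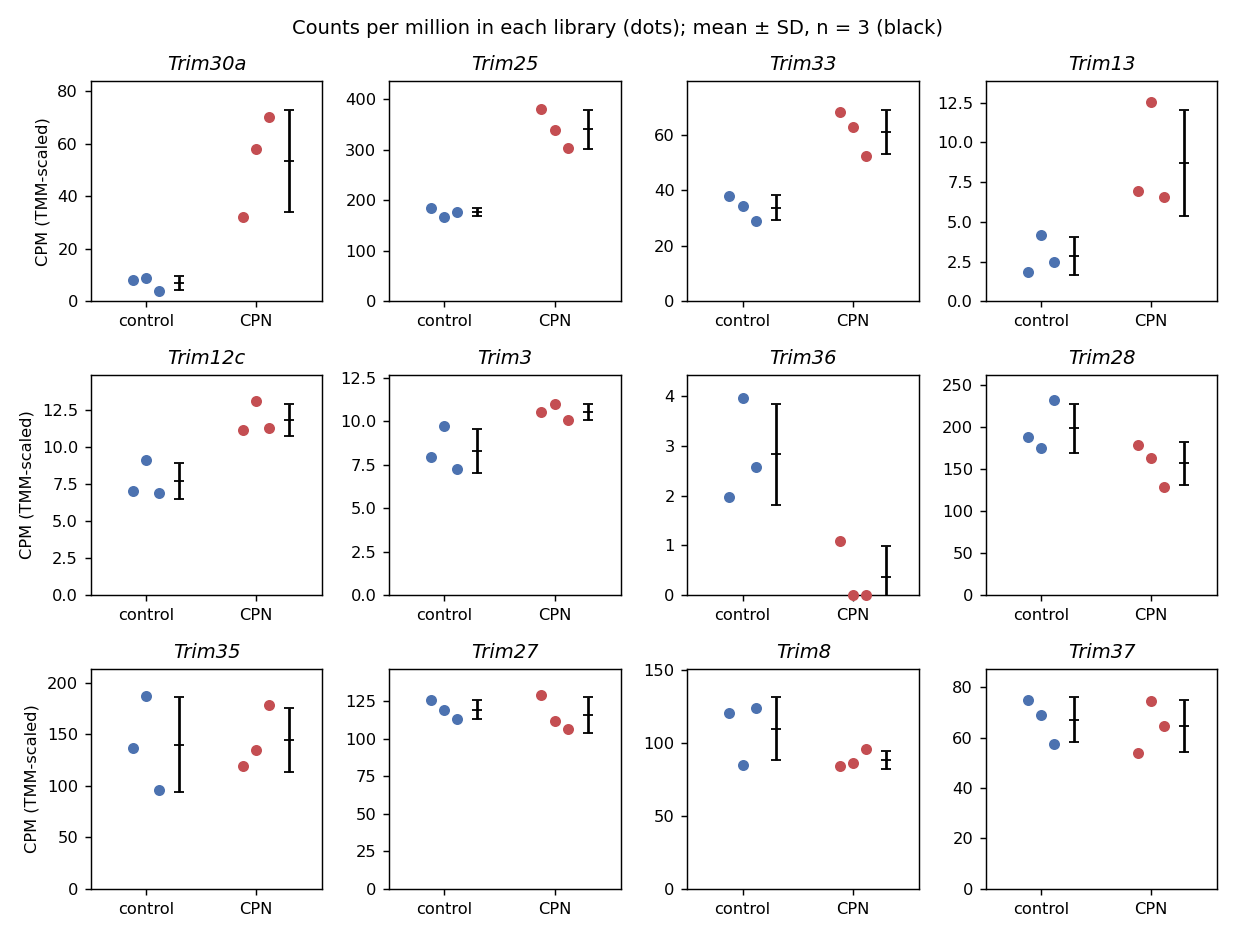
Dots show the TMM-scaled CPM of each library for 12 TRIM genes, with control in blue and CPN in red, and the black marks give the mean and SD of 3 libraries; each panel has its own axis from 0. Trim30a, Trim25, Trim33, Trim13, Trim12c and Trim3 have all CPN dots above all control dots, Trim36 has them below, and the other 5 overlap.

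Members that act around nucleic acid sensors gave 1 higher and none lower of 9 tested (11.1%), with Trim23 counted although it fell below the described minimum. Over all tested genes 14% were called, a share that stands beside this group and the groups of members that follow. Trim25, the ligase that helps to activate the RNA sensor RIG-I, lies on chromosome 11 from 88999376 to 89020293. It had 184.6, 167.7 and 176.6 CPM in control and 380.0, 338.2 and 303.0 CPM in CPN libraries. The control values lay within 1.10-fold of each other, and the lowest CPN value was well above them. On the log2 scale CPN was higher by 0.95 with an SE of 0.163 (adjusted p = 0.00182, edgeR). With 12984 counts in all, Trim25 had more reads than any other member, and it was called in 14 of 15 alternative fits. The exception left out both control 3 and CPN 1 (edgeR adjusted p = 0.0655).

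Trim13, a ligase anchored in the membrane of the endoplasmic reticulum, had 1.86, 4.19 and 2.45 CPM in control and 6.96, 12.6 and 6.58 CPM in CPN libraries. All CPN values exceeded all control values, and the fitted log2 difference of 1.62 ± 0.657 (SE) did not pass (edgeR adjusted p = 0.133). Only 282 counts stood behind it. Trim21, the cytosolic receptor for antibody-coated particles, had 3.14, 1.68 and 0.818 CPM in control and 2.16, 2.62 and 6.58 CPM in CPN libraries. These groups overlapped, and with 144 counts the 95% interval of its log2 fold change ran from -1.08 to 3.08. A change of the size seen in Trim25 was therefore not detectable for Trim21 at this depth.

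Trim27, a ligase of endosomal sorting, had 125.8, 119.2 and 112.7 CPM in control and 128.9, 111.5 and 106.4 CPM in CPN libraries. Its values overlapped, and the interval of the log2 fold change of -0.04 was narrow, from -0.43 to 0.34. Trim8, which promotes NF-kB signalling, had 120.1, 84.9 and 123.7 CPM in control and 84.0, 85.8 and 95.5 CPM in CPN libraries. Control 2 lay with the CPN libraries, and Trim8 did not pass (log2 fold change -0.31 ± 0.202, edgeR adjusted p = 0.378). Trim26, Trim14 and Trim56 also did not pass. The fitted value of Trim26 was 0.24 (interval -0.24 to 0.72), that of Trim14, an adaptor of the mitochondrial antiviral protein MAVS, was -0.22 (-0.87 to 0.43), and that of Trim56 was -0.14 (-1.08 to 0.81). Trim14 shares 1356 exonic bases with Nans on the opposite strand, a gene with 4383 counts that rose (log2 fold change 0.65, edgeR adjusted p = 0.0399), and the use of strand in counting is not given in the sources used here. Trim38 and Trim65, further genes of this group, had 7 and 41 counts. Trim65, a ligase of the RNA sensor MDA5, had 15, 2 and 21 counts in control and 3, 0 and 0 in CPN libraries and was too low to test. Trim65 and Trim47 share 225 exonic bases on the same strand, and whether these genes shared reads was not tested.

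Among chromatin members Trim33 rose, while Trim28 and Trim24 did not pass. Trim33, also called TIF1-gamma, reads histone marks and binds SMAD proteins, and it lies on chromosome 3 from 103279293 to 103358775. It had 38.0, 34.3 and 28.98 CPM in control and 68.0, 62.6 and 52.4 CPM in CPN libraries. The groups did not overlap, and CPN was higher by 0.85 on the log2 scale with an SE of 0.227 (adjusted p = 0.0239, edgeR). Its call ended without control 3 (edgeR adjusted p = 0.123), without CPN 1 (0.0924), without CPN 2 (0.0749), without both control 3 and CPN 1 (0.296) and with library totals alone (0.0518), at fitted log2 values between 0.67 and 0.85. Trim28, the corepressor of KRAB zinc finger proteins also known as KAP1, had 188.1, 175.1 and 231.8 CPM in control and 178.4, 163.6 and 128.8 CPM in CPN libraries. CPN 1 lay above control 2, and the log2 fold change of -0.34 had an interval of -0.75 to 0.07. Trim24, the relative TIF1-alpha, had a fitted value of -0.11. The difference between Trim33 and its relatives was not tested.

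**Figure D3:**
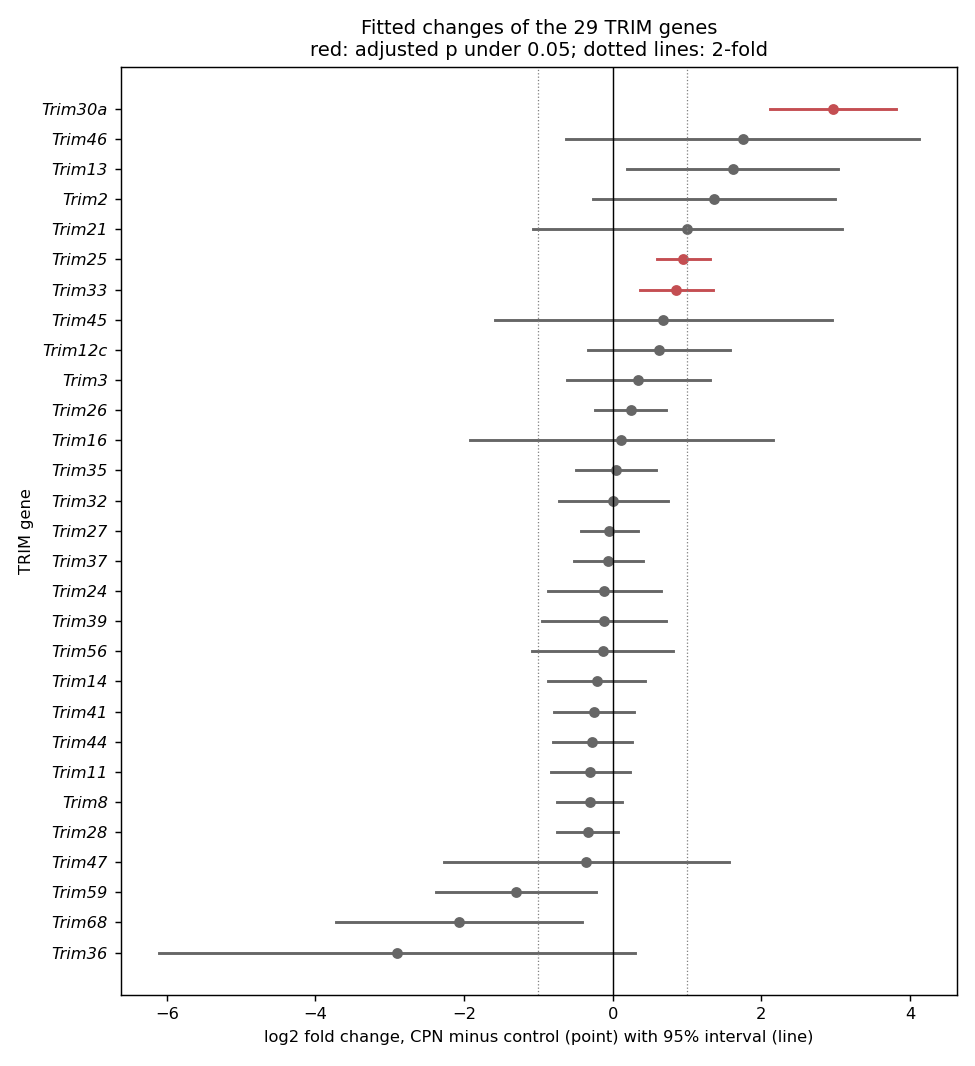
Points give the log2 fold change (CPN minus control) of each of the 29 TRIM genes and lines its 95% interval; red marks adjusted p under 0.05 and dotted lines a 2-fold change. The intervals of Trim30a, Trim25, Trim33 and the uncalled Trim13 lie above 0, and those of the uncalled Trim59 and Trim68 lie below it. Those of well-counted genes such as Trim27 and Trim37 lie within 2-fold, and those of Trim36, Trim46 and Trim16 are wide.

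None of the 3 tested members with NHL repeats, which bind RNA or partner proteins, passed by edgeR (none at an unadjusted p under 0.05). Trim3 had 7.95, 9.70 and 7.25 CPM in control and 10.6, 11 and 10.1 CPM in CPN libraries. The groups did not overlap but lay close together, 0.34 ± 0.446 (SE) apart on the log2 scale (adjusted p = 0.695, edgeR). Trim2 had a wide interval of -0.27 to 2.99. Trim32, a gene of limb-girdle muscular dystrophy, had group means of 42.5 ± 19.9 CPM in control and 42.8 ± 13.8 CPM in CPN.

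Of the microtubule and muscle members, 2 of 8 were tested, Trim36 and Trim46, and the other 6 had between 0 and 46 counts. Trim36 had 1.96, 3.95 and 2.57 CPM in control libraries, and CPN libraries had 1.08, 0 and 0 CPM. CPN was lower in each comparison of libraries, yet with 84 counts the fitted change did not pass (edgeR adjusted p = 0.241), and its interval ran from -6.11 to 0.30. The 9 CPN counts all lay in CPN 1, so that leaving out this library puts CPN at 0. The control mean of 2.83 CPM is then 7.40-fold above a floor of 3 counts per library. That ratio covers counting error only and not the spread between libraries.

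Trim46, which bundles microtubules in axons, had 0, 16.8 and 0.584 CPM in control and 28.7, 15.2 and 14.1 CPM in CPN libraries, so that control 2 alone reached the CPN level. Its exons share 239 bases with Krtcap2 on the opposite strand, a subunit gene of oligosaccharyltransferase with 21683 counts. Krtcap2 had 238, 446 and 256 CPM in control and 473, 589 and 609 CPM in CPN libraries, and it rose (log2 fold change 0.83, edgeR adjusted p = 0.0281). Among controls both genes were highest in control 2, while among CPN libraries Trim46 was highest in CPN 1, where Krtcap2 was lowest. Whether the genes shared reads was not tested. Trim46 did not pass (log2 fold change 1.75 ± 1.10, edgeR adjusted p = 0.354), but without control 2 it did at 6.08 (edgeR adjusted p = 9.31e-05). Controls 1 and 3 had 0 and 5 counts, so that fitted value is no measured fold. Trim46 also passed with limma-voom (adjusted p = 0.0387) and with no low-count filter (edgeR adjusted p = 0.0378).

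The other PRY-SPRY genes numbered 19, of which 13 had at most 25 counts and were not tested. They gave no call among 6 tested by edgeR, with 1 at an unadjusted p under 0.05. That gene was Trim68, known as the autoantigen SS-56, with 10.7, 19.1 and 3.27 CPM in control and 4.68, 1.05 and 2.11 CPM in CPN libraries. Control 3 lay below CPN 1, and the control values spanned 5.82-fold. Its fitted value of -2.06 ± 0.765 (SE) on the log2 scale did not pass by edgeR (adjusted p = 0.0976) and passed with DESeq2 (adjusted p = 0.0380). Trim35 had 136.7, 187.2 and 95.6 CPM in control and 118.8, 134.9 and 178.6 CPM in CPN libraries, with full overlap and a log2 fold change of 0.04 (interval -0.49 to 0.58). Trim11, Trim41, Trim39 and Trim47 had fitted values between -0.36 and -0.12, all with intervals that include 0.

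Members of other domain structures also gave none called of 5 tested by edgeR, with 1 at an unadjusted p under 0.05. This was Trim59, a membrane-anchored member studied in tumour growth, with 47.7, 9.34 and 31.8 CPM in control and 12.2, 7.99 and 15.9 CPM in CPN libraries. Control 2 was as low as the CPN libraries while the other 2 controls were higher. Its fitted value of -1.30 ± 0.498 (SE) did not pass (edgeR adjusted p = 0.110), and without control 2 it was -1.71 (edgeR adjusted p = 0.00296). Trim37, a centrosome protein mutated in mulibrey nanism, had 74.9, 68.8 and 57.5 CPM in control and 54.0, 74.7 and 64.6 CPM in CPN libraries, with a narrow interval of -0.52 to 0.41. Trim44, Trim45 and Trim16 had fitted values of -0.27, 0.68 and 0.12. Among the family genes with other symbols, Pml, the organiser of nuclear bodies, had 49.0 CPM in control and 31.9 CPM in CPN (log2 fold change -0.62 ± 0.305, edgeR adjusted p = 0.221). Mid1 had -0.60 ± 0.876 and did not pass, and Mid2 and Mefv, with 26 and 4 counts, were not tested.

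**Figure D4:**
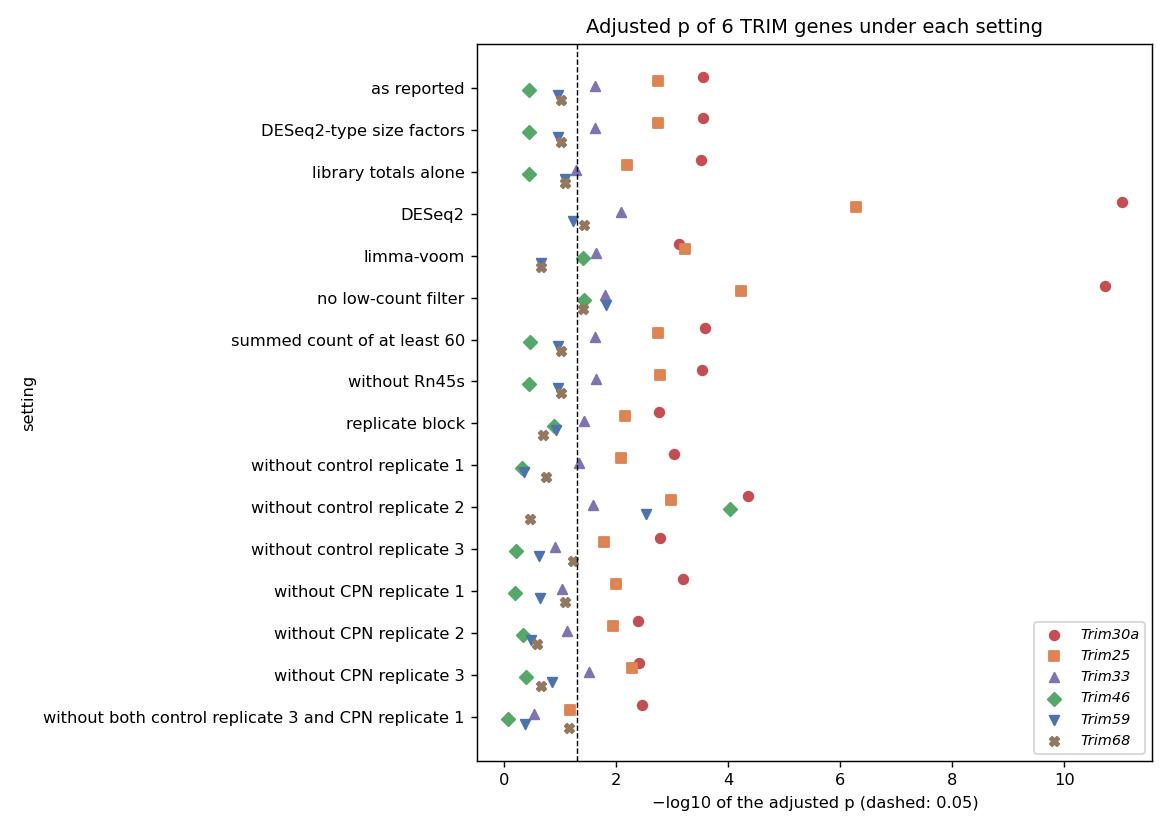
The horizontal axis gives −log10 of the adjusted p of 6 TRIM genes under the reported fit and 15 alternatives, named on the vertical axis; the dashed line marks 0.05. Trim30a lies right of the line throughout and Trim25 in 14 of 15 alternatives, while Trim33, Trim46, Trim59 and Trim68 cross it with the setting or library; Trim46 has no DESeq2 value.

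The spread between libraries set what could be seen. The gene-wise biological coefficient of variation, edgeR's estimate of the relative spread between replicates, lay between 0.166 and 0.422 in the 16 members with at least 1000 counts. In the 7 members under 300 counts it lay between 0.508 and 0.936. For 13 of the 29 members the 95% interval stayed within a 2-fold change in either direction (between -1 and 1 on the log2 scale), and 11 of those had at least 1000 counts. The groups did not overlap in 7 members, 6 of them higher and 1 lower in CPN. That share of 24.1% compares with 32.6% of all tested genes, 16.9% higher and 15.7% lower.

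Summed over all 67 entries, TRIM counts amounted to 1324, 1328 and 1200 CPM in control and 1450, 1399 and 1452 CPM in CPN libraries. Every CPN sum exceeded every control sum after TMM scaling. As shares of the library totals without this scaling, they were 0.1389%, 0.1334% and 0.1291% in control libraries. In CPN libraries these shares were 0.1448%, 0.1292% and 0.1389%, so the groups overlapped. The entries were then split by their calls in these same data, so the sums of both parts are a description and no separate result. The 3 called genes together had 230.6, 210.7 and 209.3 CPM in control and 480, 459 and 426 CPM in CPN libraries. The other 64 entries had 1067 ± 67.2 CPM in control and 979 ± 43.9 CPM in CPN (SD, n = 3), which do overlap, since CPN 3 with 1026 CPM lay above control 3 with 991 CPM. Of all TRIM counts, 63.3% came from Trim25, Trim28, Trim35, Trim27, Trim8 and Trim37.

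Members with ISRE letters in their promoter window all had positive fitted values, from 0.24 for Trim26 to 2.96 for Trim30a, with a median of 1, and 1 of the 5 was called. The intervals of the other 4 included 0. The median is the value of Trim21, with 144 counts, and Trim2 had 256 counts. Over all 311 tested genes with the letters, 186 values were positive and the median was 0.19. None of these 5 changed sign in the 15 alternative fits, where Trim26 came down to 0.074. The 16 members whose windows held no match had a median of -0.11, with 5 positive values and 1 call (Trim25). Members without a window, among them the called Trim33, are in neither group. The difference between members with and without the letters was not tested. Over all tested genes with a window, 17.7% of 311 with the letters were called higher, against 7.18% of 8171 without. The second motif searched, the gamma-activated site (letters TTCNNNGAA, the same on both strands), was found in 2 of 21 members, Trim45 and Trim46, or 9.52% beside 9.55% of all genes. By edgeR as reported, neither was called.

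Genes that work with TRIM ligases or beside them were described from 5 lists of partners. Of 16 genes of nucleic acid sensing, 5 rose and none fell (31.2%, beside 14% of all genes). Irf7, a transcription factor of the interferon response, rose 11.8-fold, Ikbke, a kinase that activates it, rose 10.7-fold, and Ddx58 and Ifih1, which encode the RNA sensors RIG-I and MDA5, rose 6.38-fold and 7.02-fold. Ddx58, the target of Trim25, had 12.7, 14.6 and 8.41 CPM in control and 57.5, 84.1 and 86.6 CPM in CPN libraries. Tab2 and Tab3, the targets of Trim30a, did not pass, with log2 fold changes of 0.51 (edgeR adjusted p = 0.0709) and 0.39. Mavs, the adaptor of both RNA sensors, had -0.77 (edgeR adjusted p = 0.145).

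Of the 5 genes that attach or remove the ubiquitin-like ISG15, 3 rose and none fell, beside 7.62% of all tested genes that rose. Isg15 itself rose 17.7-fold, the protease gene Usp18 rose 6.88-fold and the ligase gene Herc6 rose 3.71-fold, while Uba7 narrowly missed the threshold (log2 fold change 1.27, edgeR adjusted p = 0.0560). Ube2l6, the conjugating enzyme for ISG15, had a negative fitted value of -0.84 (17.5 CPM in control and 9.76 CPM in CPN, edgeR adjusted p = 0.265). In interferon receptor signalling 2 of 8 genes rose and none fell (25%, beside 14% of all genes called). These were Usp18, already counted in the ISG15 list, and the receptor gene Ifnar2 (1.92-fold). Stat2 and Irf9, with fitted values of 0.84 and 0.73, did not pass. Of 7 other RING ligases of antiviral signalling 1 was called (14.3%, beside 14% of all genes). Rnf114 rose 1.65-fold (edgeR adjusted p = 0.0441), and 0 of the 7 were called when any single library other than control 2 was left out. Dtx3l, March5 and Rnf135 had 0.72, 0.35 and -0.73 and did not pass.

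Genes of the general ubiquitin machinery gave no call. Of 13 tested genes for the activating enzyme, ubiquitin and the conjugating enzymes used by TRIM ligases, 0 were called by edgeR, 0 had an unadjusted p under 0.05, and the median log2 fold change was 0.12. Over all tested genes 14% were called, and 26.3% had an unadjusted p under 0.05 (edgeR). Uba1, the activating enzyme, had 263.6 CPM in control and 310.0 CPM in CPN (interval of the log2 fold change -0.11 to 0.58), and Ube2d3 had 247.6 and 299.7 CPM (-0.11 to 0.66). Ube2v1 and Ube2d1 had fitted values of -0.41 and -0.76. Ubb, with 9 counts, was not tested.

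**Figure D5:**
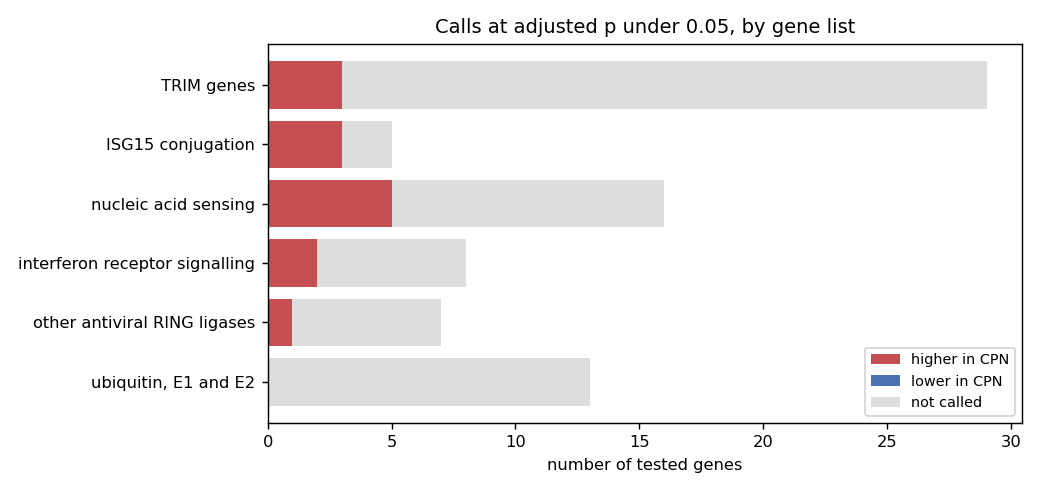
Bars give the number of tested genes in each list, divided into those higher in CPN (red), lower in CPN (blue) and not called (grey) at an adjusted p under 0.05. The TRIM genes have 3 of 29 red and the ISG15 list 3 of 5, the ubiquitin and E2 list has none, and blue is absent from each bar. Over all 11092 tested genes 14% were called.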

How the data were processed

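Messenger RNA of 6 RAW 264.7 samples (3 control, 3 CPN, grouped by title) was measured with QuantSeq libraries made from TRIzol RNA, per the labels' protocols. The authors deposited 1 table of whole-number counts per sample. Bowtie2, bedtools and mm10 are named in the submitters' processing notes without versions. Annotation, use of strand and treatment of multiply aligned reads were not given in the sources used here. The ribosomal precursor gene Rn45s, kept in the totals, held 9.04% to 16.6% of the counts.

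The test used edgeR 4.0.16 under R 4.3.3 (filterByExpr, minimum count 10, minimum total 15, then TMM, treatment as the only term) and adjusted over 11092 genes. The SE is the log2 fold change divided by the square root of F, and the 95% interval uses the same t distribution. The members and gene lists were chosen with earlier results of these data known. Every member with at least 60 summed counts could be named. Values in every sample are given for members that passed, whose groups did not overlap or that were among the 6 with most counts. Partner lists are described by at most 4 members each, those lowest in p, and beyond these by Tab2, Tab3, Mavs, Ube2l6 and the untested Ubb. Sample values of Trim21, Trim46, Trim59, Trim65 and Trim68, the split at 1000 counts, members under 60 counts, overlapping neighbours, and the partner genes Tab2, Tab3 and Mavs were added after values were seen. Gene positions come from GENCODE on GRCm38, the assembly of mm10, and promoter windows from RefSeq (GRCm38.p6). Alternatives used DESeq2-type size factors, library totals, DESeq2 1.42.0, limma-voom (limma 3.58.1), other filters, removal of Rn45s, a replicate block and libraries left out. The code was tested on simulated counts.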

Additional observations from a re-analysis of the deposited data

How the results depend on the processing

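Across 15 alternatives Trim30a was called in 15, Trim25 in 14 and Trim33 in 10. With both control 3 and CPN 1 left out, 1 member was higher (Trim30a), 5 members were lower without overlap, the median of the members was -0.15, all genes gave 273 higher and 173 lower, and partner lists gave 6 higher against 10. DESeq2 called 1 member lower (Trim68) and the fit with no low-count filter called 2 lower (Trim59, Trim68). Library totals alone moved the median of the members to -0.16 and that of all genes to -0.13. With 1 library left out at a time, members called lower numbered 0 to 1, members called higher 2 to 4, the median of the members ran from -0.21 to 0.18, and members lower without overlap numbered 1 to 5. All genes then gave 525 to 1131 higher and 359 to 823 lower, and partner lists 7 to 13 higher. The cause of these moves was not tested. Fits with libraries left out also had fewer samples.

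Of the described members, 10 (Trim16, Trim24, Trim27, Trim32, Trim35, Trim37, Trim39, Trim45, Trim47 and Trim56) changed sign under at least 1 setting, and none of these was called under any. Trim16 had -0.38 with limma-voom, -0.25 with the replicate block and -0.15 without both libraries, and -0.83 to 0.65 with 1 library left out. Trim32 and Trim35 had -0.13 and -0.069 with library totals alone. Without both libraries Trim35 had -0.047, Trim45 -0.26, Trim24 -0.32, Trim39 -0.47 and Trim56 -0.63. Trim56 had 0.013 with limma-voom. With 1 library left out, Trim32 ran from -0.21 to 0.46, Trim35 from -0.17 to 0.33, Trim24 from -0.25 to 0.18, Trim27 from -0.13 to 0.013, Trim37 from -0.17 to 0.053, Trim39 from -0.34 to 0.060, Trim45 from 0.19 to 1.57, Trim47 from -0.71 to 0.16 and Trim56 from -0.48 to 0.48.

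Without CPN 1, and without both libraries, the fitted value of Trim36 was left out because CPN was at 0, and DESeq2 gave Trim46 no adjusted p. With the replicate number as a block, 3 members were called, the same 3 genes. Same-numbered libraries correlated at -0.07, 0.01 and 0.04 in their deviations from the group means, so the numbers were not taken as pairs.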
